A study of Mus musculus with 9 samples.

Results

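The 39 complement and coagulation genes described here are the plasma proteases, cofactors, inhibitors and structural proteins that the liver makes for innate defence and for clotting. They were chosen by symbol, as a fixed list of 19 complement and 20 coagulation genes, and the rule that picks them reads no measured value, although earlier results of these data were known when the list was made. All 39 symbols were found among the 34866 genes of the deposited tables, and all 39 were among the 13193 genes with enough counts to be tested. RNA was measured by poly(A) RNA-Seq in the livers of 9 male C57BL/6J mice, bought at 5 weeks of age, with 1 library per mouse. The control mice on Earth (GC mice, n = 3) were kept on the ground. The A1G mice (n = 3) spent 30 days in space in a centrifuge that gave artificial earth gravity of 1 g, and the MG mice (n = 3) spent 30 days in space under microgravity. All mice were of the same strain and received the same diet. Both flown groups also went through launch, landing and transport before dissection, and the A1G mice had no centrifuge during the transfers. The ground experiment was run later, at another site and at a lower CO2 concentration than on board, so in the comparisons with GC mice these differences and spaceflight cannot be told apart. Each mouse is a separate animal, and the labels state no batch.

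Complement is a cascade of plasma proteins that marks microbes and damaged cells. The classical and lectin pathways start with C1 or mannose-binding lectins and their proteases, all pathways meet at the cleavage of C3, and C5 to C9 then assemble into a pore, the membrane attack complex. Coagulation runs through vitamin K-dependent proteases to thrombin, which turns fibrinogen into fibrin. Antithrombin, heparin cofactor II and the protein C system hold thrombin back, and plasmin dissolves the clot. Hepatocytes secrete most of these proteins, and several of them, C3 and fibrinogen among them, are acute phase proteins whose genes are switched on by inflammatory cytokines.

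Levels of different genes were compared as TPM (transcripts scaled to a fixed total per library), which corrects for transcript length. In GC mice Serpinc1 (antithrombin) was the highest member, at 2827 ± 232 TPM (SD, n = 3). Fgg, Fga and C3 followed at 2092 ± 299, 1789 ± 345 and 1157 ± 297 TPM, and the spreads of Fgg and Fga overlap. Next came Fgb, F2 (prothrombin) and Kng1 (kininogen) at 1032 ± 139, 1011 ± 102 and 992 ± 41.7 TPM, which did not differ beyond their spread, and Plg (plasminogen) at 931 ± 119 TPM. The lowest members were F11 (factor XI) at 32.6 ± 6.29 TPM, Masp1 (a lectin pathway protease) at 27.9 ± 5.11 TPM and Pros1 (protein S) at 17.0 ± 2.20 TPM. The rank of some members moved between groups. C3 ranked between 4 and 7 of the 39 members in GC mice, between 2 and 4 in A1G mice, and between 1 and 4 in MG mice. C6, a pore component, ranked between 27 and 29 in GC mice, between 30 and 33 in A1G mice and between 34 and 36 in MG mice.

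The libraries held 13189515 to 23738049 estimated counts, and a member had on average between 858 (F11) and 139842 (C3) counts per library, so counting error was small beside the spread between mice. Comparisons between groups use CPM, counts relative to the total of each library, after TMM scaling, which sets the typical gene of each library to the same level, and edgeR's quasi-likelihood test. A member is said to rise or fall only where its p, adjusted by Benjamini-Hochberg over all 13193 genes tested, was under 0.05. Whether groups overlap is stated for CPM unless TPM is named. Overlap and the sign of small fold changes can differ in TPM. The share of all genes with every flown mouse below every GC mouse was not counted. Hepatocyte markers were abundant in every mouse, and 1 of 6, Tat (tyrosine aminotransferase), fell in MG mice against GC mice by 0.71 on the log2 scale (edgeR adjusted p = 0.0208). Of 7 stellate cell markers Col1a1 fell (log2 fold change -1.79, edgeR adjusted p = 0.0258), and no marker of Kupffer cells, endothelium, cholangiocytes, platelets, red cells or lymphocytes passed. The 5 cholangiocyte markers had a median log2 fold change of -1.17 in MG mice against GC mice, with 3 lower at an unadjusted p under 0.05, and of -1.30 in MG mice against A1G mice. Their summed CPM was 29.7 to 55.8 in GC mice, 33.1 to 50.4 in A1G mice and 28.1 to 32.4 in MG mice, and their part in the results was not tested. The summed CPM of 5 red cell genes was 316.1 to 358.0 in GC mice, 113 to 417 in A1G mice and 142 to 251 in MG mice. That of 6 platelet genes was at most 3.93 and that of 6 neutrophil genes at most 1.83, with Ly6g at 0. In whole liver, fewer cells of a type and less RNA per cell cannot be told apart. A1G replicate 1 stood apart from its group mates, with a chi-square per gene of 81.8 and 82.2 against them where they gave 17.2 between themselves, and GC replicate 1 did so less, at 48 and 64 against 23.7. Pearson correlations of log2 CPM did not set A1G replicate 1 apart. They were 0.973 and 0.975 with its group mates, and 0.969 to 0.983 in the other pairs within groups. A1G replicate 1 had the lowest CPM of the 9 mice for 32 of the 39 members and the lowest TPM for 22, and GC replicate 1 for 2 and 15. Many log2 fold changes that involve A1G mice are therefore given also without A1G replicate 1. Without it, no member passed in A1G mice against GC mice.

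In MG mice compared to GC mice, 4 of the 39 members changed. C3, the protein on which all complement pathways meet, rose 2.11-fold, and Hrg (histidine-rich glycoprotein, a plasma protein that binds heparin and plasminogen) rose 1.52-fold. C6 fell to 0.270 times and C9 to 0.448 times its GC level, and both are parts of the membrane attack complex. The remaining 35 members did not pass. The 4 calls are 10.3% of the members, where 3.33% of all genes tested were called (1.17% higher and 2.15% lower). Of the 3016 genes with a mean count at or above that of the lowest member, 7.33% were called, which is closer to the share of the members. The groups did not overlap in CPM for 7 members higher in MG mice and 16 lower, beside 10.7% and 12% of all genes tested.

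C3 had CPM of 3964, 4825 and 5367 (GC), 7867, 5864 and 6951 (A1G) and 11289, 9657 and 8967 (MG). The 3 groups do not overlap, with the A1G mice between the others. The log2 fold change was 1.08 ± 0.16 (SE) in MG mice against GC mice (edgeR adjusted p = 0.00417). It was 0.55 ± 0.16 in A1G mice against GC mice and 0.53 ± 0.16 in MG mice against A1G mice (edgeR adjusted p = 0.159 and 0.284), and 0.45 and 0.64 without A1G replicate 1. C3 alone made up 20.6 ± 2.70% of the summed TPM of the complement members in GC mice, 33.2 ± 7.06% in A1G mice and 40.6 ± 3.07% in MG mice (SD, n = 3). Without C3, that sum was 4407 ± 427, 4021 ± 688 and 4188 ± 73.2 TPM, with overlapping groups. In CPM it was 8578, 8503 and 8862 (GC), 5099, 7136 and 7580.0 (A1G) and 6901, 7037 and 7040.0 (MG), and on that scale every flown mouse lies below every GC mouse.

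Hrg had CPM of 679, 664 and 601 (GC), 623, 706 and 757 (A1G) and 1124, 922 and 902 (MG). The MG mice lie above all others, and the A1G and GC mice overlap. The log2 fold change was 0.60 ± 0.13 in MG mice against GC mice (edgeR adjusted p = 0.0253), 0.10 ± 0.13 in A1G mice against GC mice and 0.50 ± 0.13 in MG mice against A1G mice (edgeR adjusted p = 0.760 and 0.203). When A1G replicate 1 was left out, these last values were 0.18 and 0.42. Its call was lost when any GC mouse or MG replicate 1 or 2 was left out, with adjusted p up to 0.107.

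C6 had CPM of 337, 368 and 404 (GC), 102, 244 and 222 (A1G) and 90.6, 126 and 82.8 (MG). Every flown mouse lies below every GC mouse, and A1G replicate 1 lies within the range of the MG mice. In TPM A1G replicate 3 (130) lies above GC replicate 1 (126). The log2 fold change was -1.89 ± 0.27 in MG mice against GC mice (edgeR adjusted p = 0.00379), -0.96 ± 0.27 in A1G mice against GC mice and -0.93 ± 0.27 in MG mice against A1G mice (edgeR adjusted p = 0.144 and 0.262). Without A1G replicate 1 the last comparison passed, at a log2 fold change of -1.23 (edgeR adjusted p = 0.0164), and A1G mice against GC mice gave -0.66 (edgeR adjusted p = 0.183). MG mice against A1G mice passed for C6 in 1 of 9 fits that left out 1 mouse, with edgeR adjusted p up to 0.602. The ratio of C3 to C6 in TPM was 6.82, 6.88 and 6.88 (GC), 39.5, 13.3 and 15.6 (A1G) and 67.5, 42.7 and 63.0 (MG). This ratio does not depend on how libraries are scaled, and it was higher in every flown mouse than in any ground mouse. C3 and C6 had the largest rise and fall among the members, and each already lay apart from the GC mice in CPM. The order of the ratio therefore followed from the choice of genes, and it is no separate result.

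C9, which forms most of the ring of the pore, had CPM of 403, 429 and 415 (GC), 119, 276 and 283 (A1G) and 154, 217 and 189 (MG). Every flown mouse lies below every GC mouse, and the lowest value is again that of A1G replicate 1. In TPM A1G replicate 3 (214) and GC replicate 1 (213) were nearly level. The log2 fold change was -1.16 ± 0.26 in MG mice against GC mice (edgeR adjusted p = 0.0347), -0.88 ± 0.26 in A1G mice against GC mice and -0.28 ± 0.26 in MG mice against A1G mice (edgeR adjusted p = 0.165 and 0.829). Without A1G replicate 1 the last values were -0.57 and -0.58 (edgeR adjusted p = 0.159 and 0.119). The call of C9 was lost when any GC mouse or any MG mouse was left out, with adjusted p up to 0.145. The calls of C3 and C6 passed in all 9 fits that left out 1 mouse.

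**Figure D1:**
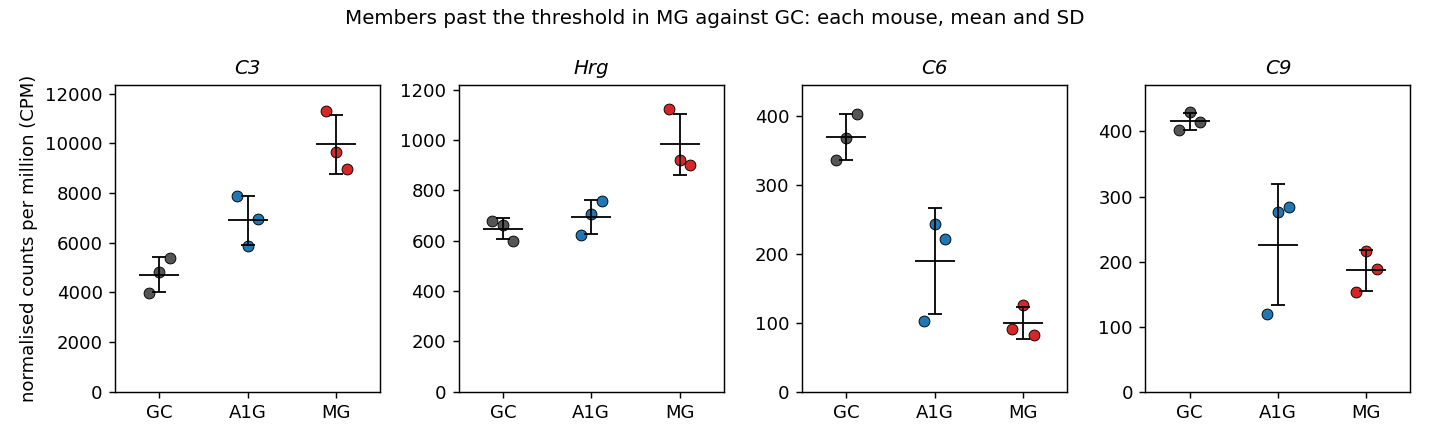
Normalised CPM (linear axis from 0) of C3, Hrg, C6 and C9 in each mouse, with points for the 3 mice of the GC, A1G and MG groups and black bars for the mean and SD. In MG mice C3 and Hrg lie above, and C6 and C9 below, every GC mouse.

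The promoters of these 4 genes and of C8b, the member next in order by p in the same comparison, are shown because these genes lead the comparison with most calls. C3 (ENSMUSG00000024164.15) lies on the minus strand of chromosome 17 (57203970 to 57228136), C6 (ENSMUSG00000022181.16) and C9 (ENSMUSG00000022149.17) on the plus strand of chromosome 15 (4727175 to 4814967 and 6445327 to 6498751), C8b (ENSMUSG00000029656.13) on the plus strand of chromosome 4 (104766317 to 104804548) and Hrg (ENSMUSG00000022877.8) on the plus strand of chromosome 16 (22951072 to 22961656), in GRCm38. The sequences are RefSeq's for GRCm38.p6, read 5′ to 3′ up to the base before the start of the gene, at chr17:57228137-57228386 (minus strand), chr15:4726960-4727174, chr4:104766067-104766316, chr15:6445096-6445326 and chr16:22950822-22951071 (plus strand). Capitals mark letters that match the C/EBP motif TTNNGNAAT or the HNF1 motif GTTAAT on either strand, both named for factors that regulate many hepatocyte genes.
C3: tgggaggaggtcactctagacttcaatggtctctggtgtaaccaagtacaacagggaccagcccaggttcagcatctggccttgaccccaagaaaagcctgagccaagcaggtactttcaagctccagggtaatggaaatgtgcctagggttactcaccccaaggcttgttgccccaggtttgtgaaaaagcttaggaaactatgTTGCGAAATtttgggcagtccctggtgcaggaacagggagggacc
C6: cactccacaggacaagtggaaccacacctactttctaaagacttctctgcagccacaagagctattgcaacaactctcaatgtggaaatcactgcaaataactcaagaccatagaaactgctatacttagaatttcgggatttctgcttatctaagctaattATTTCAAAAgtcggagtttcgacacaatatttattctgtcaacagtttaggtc
C8b: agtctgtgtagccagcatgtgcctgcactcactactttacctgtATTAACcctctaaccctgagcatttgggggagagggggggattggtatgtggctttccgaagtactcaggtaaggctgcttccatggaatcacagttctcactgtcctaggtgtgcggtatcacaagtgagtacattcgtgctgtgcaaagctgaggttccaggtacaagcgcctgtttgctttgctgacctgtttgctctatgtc
C9: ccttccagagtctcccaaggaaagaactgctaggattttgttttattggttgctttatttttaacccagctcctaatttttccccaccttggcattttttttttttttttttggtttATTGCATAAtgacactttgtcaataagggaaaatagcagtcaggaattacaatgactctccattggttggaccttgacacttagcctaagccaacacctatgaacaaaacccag
Hrg: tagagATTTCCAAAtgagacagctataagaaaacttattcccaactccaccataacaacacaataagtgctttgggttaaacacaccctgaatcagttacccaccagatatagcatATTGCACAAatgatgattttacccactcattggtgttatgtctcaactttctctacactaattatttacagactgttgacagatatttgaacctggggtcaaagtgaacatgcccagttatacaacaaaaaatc

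All of C3, C6, C9 and Hrg hold TTNNGNAAT and C8b holds GTTAAT. Of the 39 members, 30 had a promoter of 300 bases (250 before and 50 after the start) in the table. TTNNGNAAT was found in 11 of the 30 (36.7%), where 11.5% of all 32851 promoters hold it. GTTAAT was found in 9 (30.0%, against 7.10%), among them C8a, Hc, F2, Fga and Fgb. The STAT motif TTCNNNGAA was found in 7 (23.3%, against 8.30%), among them Fga, Fgb and F9. The motifs CAAAGTCCA (HNF4) and TGACGTG (ATF6 and CREB3L3) were in none, against 0.475% and 2.01% of all promoters. TTCNNNGAA and TTNNGNAAT can share letters. These matches describe letters in a window, and 6 of 13 complement and 5 of 17 coagulation promoters hold TTNNGNAAT.

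Of the 6 terminal components 2 fell in MG mice against GC mice (C6 and C9) and none rose. Of all genes tested 2.15% fell, and of genes as abundant as the members 7.33% were called in either direction. All 6 had negative log2 fold changes and their median was -0.67, where the median of all genes tested was 0.00. The sign of Hc depends on scaling, since its mean TPM was 176 in GC mice and 201 in MG mice. In A1G mice against GC mice the median was -0.69, with all 6 negative and none past the threshold, and it was -0.45 without A1G replicate 1, again with all 6 negative. C8b, a chain of complement C8, had CPM of 396, 459 and 387 (GC), 131, 250.2 and 288 (A1G) and 223, 255 and 228 (MG). Every flown mouse lies below every GC mouse. In TPM A1G replicate 3 (185) lies above GC replicate 1 (182). The fitted log2 fold change was -0.81 ± 0.23 in MG mice against GC mice, -0.89 ± 0.23 in A1G mice against GC mice and 0.08 ± 0.22 in MG mice against A1G mice (edgeR adjusted p = 0.0767, 0.117 and 0.967). With A1G replicate 1 left out, the C8b values were -0.81, -0.61 and -0.19 (edgeR adjusted p = 0.00161, 0.0900 and 0.694), so that C8b passed in MG mice against GC mice. It passed there in 1 of 9 fits that left out 1 mouse, with edgeR adjusted p up to 0.240. Without A1G replicate 1, 397 of all genes fell in MG mice against GC mice, where 284 fell with all mice.

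C8g, the gamma chain, had CPM of 344, 281 and 253 (GC), 160.0, 254 and 204 (A1G) and 175, 210 and 223 (MG). The MG mice lie below all GC mice, and A1G replicate 2 lies inside the GC range. Log2 fold changes were -0.53 ± 0.17, -0.50 ± 0.17 and -0.03 ± 0.17 in the same order (edgeR adjusted p = 0.129, 0.223 and 0.989), and -0.34 in A1G mice against GC mice without A1G replicate 1. C8a, whose gene lies 11.1 kb from C8b, had a log2 fold change of -0.48 ± 0.25 in MG mice against GC mice (edgeR adjusted p = 0.333), and its groups did not overlap. C8a went from -0.42 to -0.12 in A1G mice against GC mice without A1G replicate 1, and in MG mice against GC mice it then passed, at -0.47 (edgeR adjusted p = 0.0429). It passed there in 1 of 9 fits that left out 1 mouse, with edgeR adjusted p up to 0.585. Hc (complement C5) had the smallest, at -0.04 ± 0.14 and -0.23 ± 0.14 in the MG and A1G mice against GC mice (edgeR adjusted p = 0.915 and 0.473), the latter going to -0.10 without A1G replicate 1. The unequal sizes also showed in ratios of TPM. C8a over C8b was 0.969, 0.929 and 1.28 (GC), 1.39, 1.51 and 1.55 (A1G) and 1.28, 1.29 and 1.51 (MG), so that every A1G mouse lay above every GC mouse, and MG replicate 1 met the highest GC value. Summed over the 6 genes, the level was 1399 ± 160 TPM in GC mice, 1104 ± 309 in A1G mice and 1037 ± 64.5 in MG mice.

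**Figure D2:**
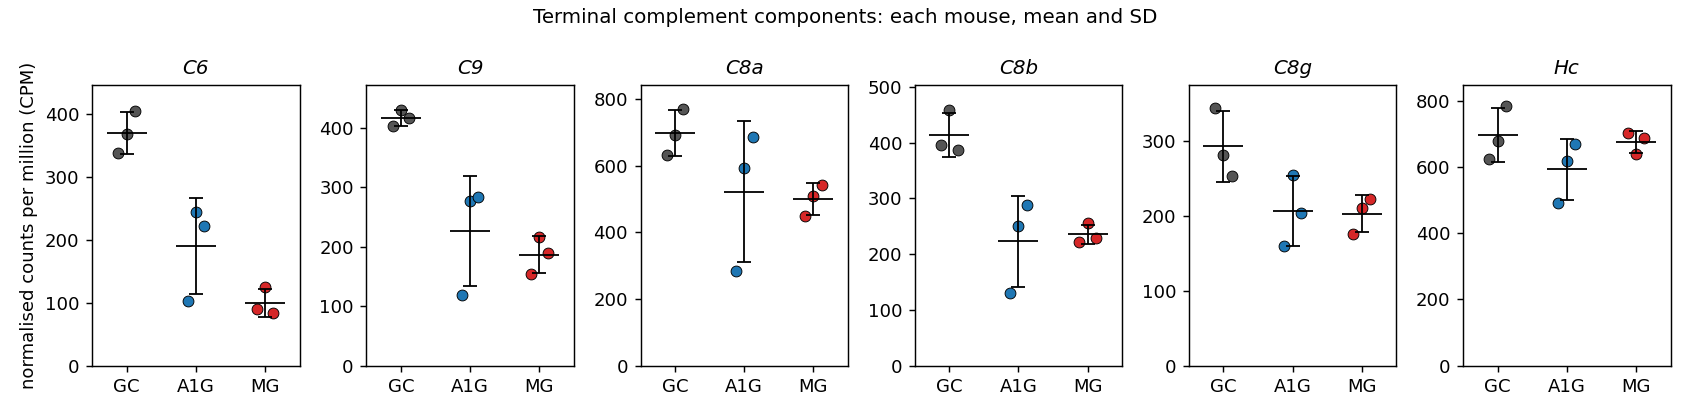
Normalised CPM (linear axis from 0) of the 6 terminal complement components in each mouse, with black bars for the mean and SD of 3 mice per group. C6, C9 and C8b are lower in every flown mouse than in any GC mouse, whereas the Hc values of the groups overlap. In TPM, C6, C9 and C8b overlap between A1G and GC mice.

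Of the convertase components, which cleave C3 and C5, 1 of 4 rose in MG mice against GC mice (C3), beside 1.17% of all genes tested. The other 3 had negative log2 fold changes, though the mean TPM of Cfb was higher in MG mice (551 against 510). C2, the protease of the classical convertase, had CPM of 101.1, 106 and 97.1 (GC), 42.5, 77.4 and 84.1 (A1G) and 66.8, 63.6 and 54.8 (MG). All flown mice lie below the GC mice. In TPM A1G replicates 2 and 3 (57.9 and 54.9) lie within the GC range (48.7 to 65.1). On the log2 scale the difference was -0.71 ± 0.20 in MG mice and -0.58 ± 0.20 in A1G mice against GC mice and -0.14 ± 0.20 in MG mice against A1G mice (edgeR adjusted p = 0.0842, 0.229 and 0.913). The C2 values without A1G replicate 1 were -0.71, -0.32 and -0.39 (edgeR adjusted p = 0.00307, 0.412 and 0.256), so that C2 passed in MG mice against GC mice. C2 passed there in 1 of 9 fits that left out 1 mouse, with edgeR adjusted p up to 0.236. A protein-coding gene model on the same strand, Gm20547, spans C2 and Cfb, so reads may have been shared between them.

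C4b, which supplies the non-protease part of that convertase, had CPM of 1309.7, 1271 and 1394 (GC), 687, 1046 and 1088 (A1G) and 1231, 1054 and 1201 (MG). The MG mice lie below the GC mice by a small margin, and A1G replicate 1 is far below its group mates. edgeR gave a log2 fold change of -0.19 ± 0.16 in MG mice and -0.49 ± 0.16 in A1G mice against GC mice and 0.31 ± 0.16 in MG mice against A1G mice (edgeR adjusted p = 0.583, 0.203 and 0.650). Without that mouse C4b was at -0.31 and 0.12 in the last 2 comparisons. The mouse has a near-identical copy of this gene, so its counts are uncertain. Cfb (factor B of the alternative pathway), which lies next to C2, differed least, at -0.08 ± 0.10 in both flown groups against GC mice (edgeR adjusted p = 0.756 and 0.774).

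Of the 6 initiators of the classical and lectin pathways none passed in any comparison with all mice. C1ra, the protease that activates C1s, had CPM of 325, 341 and 330 (GC), 208, 288 and 299 (A1G) and 237, 260 and 227 (MG). Every flown mouse lies below the GC mice. Its log2 fold change was -0.46 ± 0.14 in MG mice and -0.33 ± 0.14 in A1G mice against GC mice and -0.13 ± 0.14 in MG mice against A1G mice (edgeR adjusted p = 0.0963, 0.310 and 0.850). The C1ra values without A1G replicate 1 were -0.45, -0.17 and -0.28 (edgeR adjusted p = 0.0193, 0.638 and 0.382), so that C1ra passed in MG mice against GC mice. C1ra passed there in 1 of 9 fits that left out 1 mouse, with edgeR adjusted p up to 0.267. C1s1, its substrate and neighbour at 6.90 kb, was at -0.35 ± 0.16 and -0.37 ± 0.16 (edgeR adjusted p = 0.255 and 0.321), the latter going to -0.18 without A1G replicate 1. Both have near-identical copies, C1rb and C1s2, which were below the filter on low counts. The lectins Mbl1 and Mbl2 and the proteases Masp1 and Masp2 lay between -0.17 and 0.02 in MG mice against GC mice. Mbl2 (mannose-binding lectin C) was at -0.37 ± 0.13 in A1G mice against GC mice and at 0.36 ± 0.13 in MG mice against A1G mice (edgeR adjusted p = 0.237 and 0.395), with no overlap in either, and at -0.25 and 0.25 without A1G replicate 1.

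The 3 fluid-phase inhibitors of complement had negative values in MG mice against GC mice, none past the threshold. Serping1 (C1 inhibitor, which also blocks kallikrein and factor XII) was at -0.24 ± 0.14, C4bp (C4b-binding protein) at -0.25 ± 0.16 and Cfi (factor I, which cleaves C3b and C4b) at -0.02 ± 0.12 (edgeR adjusted p = 0.397, 0.442 and 0.966). In A1G mice against GC mice they lay between -0.42 and -0.22, and between -0.25 and -0.12 without A1G replicate 1.

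Of the contact system none of 4 passed. F12 (factor XII), F11, Klkb1 (plasma prekallikrein) and Kng1 had negative values in both flown groups against GC mice, from -0.59 ± 0.25 (F11) to -0.07 ± 0.13 (Kng1) in MG mice and from -0.71 ± 0.25 (F11) to -0.20 ± 0.13 (Kng1) in A1G mice, or -0.46 to -0.09 without A1G replicate 1. F11 had the lowest counts of all members. Kng1 and Hrg lie 96.2 kb apart on chromosome 16, and only Hrg rose, though the difference between the 2 genes was not tested. A protein-coding model, Gm45753, overlaps Klkb1 on the same strand, so its counts are uncertain.

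Of the vitamin K-dependent zymogens and cofactor V none of 5 passed, and their values in A1G mice were mostly below those of GC mice. F10 (factor X) had CPM of 400.2, 411 and 329.8 (GC), 222, 310.5 and 299 (A1G) and 305, 349.6 and 336 (MG). The A1G mice lie below the GC mice, and the MG mice overlap them. The fitted log2 fold change was -0.20 ± 0.14, -0.46 ± 0.14 and 0.25 ± 0.14 in MG mice against GC mice, A1G mice against GC mice and MG mice against A1G mice (edgeR adjusted p = 0.491, 0.189 and 0.684), and the last 2 were -0.31 and 0.11 without A1G replicate 1.

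F7 (factor VII, which starts clotting with tissue factor), 1.5 kb from F10, had CPM of 92.6, 113 and 84.5 (GC), 56.6, 84.7 and 67.3 (A1G) and 89.9, 88.8 and 80.0 (MG). The groups overlap. The fitted log2 fold changes were -0.17 ± 0.15, -0.48 ± 0.15 and 0.31 ± 0.15 in the same order (edgeR adjusted p = 0.618, 0.196 and 0.606), and the last 2 were -0.34 and 0.18 without A1G replicate 1. F2 was at -0.10 ± 0.11 in MG mice and -0.32 ± 0.11 in A1G mice against GC mice (edgeR adjusted p = 0.684 and 0.233). F9 (factor IX) and F5 (factor V) were at 0.24 ± 0.11 and 0.29 ± 0.14 in MG mice against GC mice (edgeR adjusted p = 0.3 and 0.292), and every MG mouse lay above every GC mouse for both. For F5 the margin was small, with CPM of 379, 412 and 526 (GC) and 554, 528 and 528 (MG).

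The 3 fibrinogen chains, whose genes lie together on chromosome 3, were higher in every MG mouse than in any A1G mouse, beside 7.62% of all genes, and none passed. Fga (alpha chain) had CPM of 2854, 3359 and 3307 (GC), 2837, 2986 and 2990.2 (A1G) and 3746, 3635 and 4029.9 (MG). The MG mice lie above all other mice. On the log2 scale the difference was 0.26 ± 0.12, -0.11 ± 0.12 and 0.37 ± 0.12 in MG mice against GC mice, A1G mice against GC mice and MG mice against A1G mice (edgeR adjusted p = 0.255, 0.708 and 0.298). Fgb (beta chain) had CPM of 3430.3, 3886 and 3289 (GC), 2573, 3009 and 3015 (A1G) and 3722, 3551 and 4128 (MG). The GC mice lie between, overlapping the MG mice. On the log2 scale these were 0.10 ± 0.13, -0.30 ± 0.13 and 0.41 ± 0.13 (edgeR adjusted p = 0.718, 0.308 and 0.296).

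Fgg (gamma chain) had CPM of 2787, 3100.3 and 2866 (GC), 2046, 2475 and 2541 (A1G) and 3161, 3088 and 3419 (MG). Again the A1G mice were lowest. Its log2 fold changes were 0.14 ± 0.12, -0.31 ± 0.12 and 0.45 ± 0.12 in the same order (edgeR adjusted p = 0.585, 0.285 and 0.237). Without A1G replicate 1, Fga, Fgb and Fgg were at -0.08, -0.22 and -0.21 in A1G mice against GC mice. In MG mice against A1G mice they were then at 0.35, 0.33 and 0.36. Fgg over Fgb in TPM lay between 1.95 and 2.14 in all 9 mice. Fga over Fgb varied more, from 1.59 in GC replicate 1 to 2.13 in A1G replicate 1. F13b, the carrier chain of the fibrin cross-linking factor XIII, was at -0.09 ± 0.14 in MG mice against GC mice (edgeR adjusted p = 0.784).

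Of the 3 fibrinolysis genes Hrg rose in MG mice against GC mice, beside 1.17% of all genes tested. In MG mice against A1G mice all 3 had values above 0 with no overlap, beside 7.62% of all genes. Serpinf2 (alpha-2-antiplasmin, the inhibitor of plasmin) had CPM of 538, 581 and 591 (GC), 370.3, 508 and 517 (A1G) and 644, 579 and 691 (MG). The A1G mice lie below all others, and the MG and GC mice overlap. edgeR gave a log2 fold change of 0.16 ± 0.14, -0.29 ± 0.14 and 0.46 ± 0.14 in MG mice against GC mice, A1G mice against GC mice and MG mice against A1G mice (edgeR adjusted p = 0.584, 0.372 and 0.294). Plg, the zymogen of plasmin, was at 0.11 ± 0.13, -0.24 ± 0.13 and 0.35 ± 0.13 (edgeR adjusted p = 0.716, 0.417 and 0.400). With A1G replicate 1 left out, Serpinf2 and Plg were at -0.15 and -0.12 in A1G mice against GC mice and at 0.32 and 0.23 in MG mice against A1G mice.

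Of the 4 anticoagulants none passed. Serpinc1 had CPM of 2066, 1933 and 1825 (GC), 1389, 1663 and 1547 (A1G) and 1676, 1717 and 1641 (MG). All flown mice lie below the GC mice on this scale. In TPM the groups of Serpinc1 overlap, at 2827 ± 232 (GC), 2578 ± 180 (A1G) and 2845 ± 140 (MG). Its log2 fold change was -0.21 ± 0.11, -0.34 ± 0.11 and 0.13 ± 0.11 in MG mice against GC mice, A1G mice against GC mice and MG mice against A1G mice (edgeR adjusted p = 0.355, 0.210 and 0.813), and the last 2 were -0.27 and 0.06 without A1G replicate 1. Serpind1 (heparin cofactor II), another thrombin inhibitor, lay the other way in MG mice against GC mice, at 0.25 ± 0.12 (edgeR adjusted p = 0.268), and every MG mouse lay above every other mouse. Proc (protein C) and its cofactor Pros1 were at -0.17 ± 0.12 and -0.28 ± 0.14 (edgeR adjusted p = 0.503 and 0.306).

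**Figure D3:**
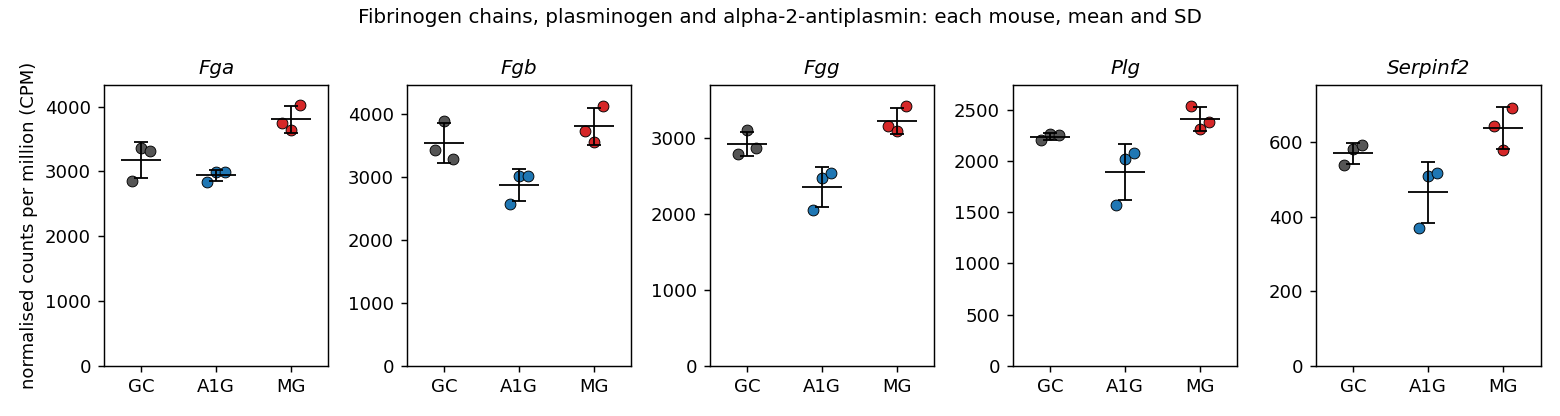
Normalised CPM (linear axis from 0) of the 3 fibrinogen chains, Plg and Serpinf2 in each mouse, with black bars for the mean and SD of 3 mice per group. For all 5 genes every MG mouse lies above every A1G mouse, as for 7.62% of all genes tested, and none of the differences passed the threshold.

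Of 19 complement members 1 rose and 2 fell in MG mice against GC mice, 17 had negative values and the median log2 fold change was -0.24. Of 20 coagulation members 1 rose and none fell, 11 had negative values and the median was -0.08. The calls are 15.8% of the complement and 5% of the coagulation members. Of all genes tested 1.17% rose and 2.15% fell, and of genes as abundant as the members 7.33% were called. At an unadjusted p under 0.05 there were 1 complement member higher and 7 lower and 3 coagulation members higher and 1 lower, beside 18.5% of all genes in either direction. The counts by sign depend on scaling, since 11 of the 39 members had positive values here, 19 with library size only and 27 on the log2(TPM + 1) scale. The groups did not overlap for 1 complement member higher and 11 lower, and for 6 coagulation members higher and 5 lower, beside 10.7% of all genes higher and 12% lower. The lists are described by counts and medians, with no test between them. The coagulation median is near 0 and its sign depends on scaling, at 0.05 with library size only and 0.18 on the log2(TPM + 1) scale, where the complement median was -0.06. Scaling by library size moved the median of all genes to 0.14 and TPM to 0.24. Relative to these shifts the complement medians were -0.24 and -0.29 and the coagulation medians -0.09 and -0.06.

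In A1G mice against GC mice, which both had gravity of 1 g, none of the 39 members passed in edgeR, where 0.644% of all genes tested and 1.76% of those as abundant as the members did. At an unadjusted p under 0.05 there were 22 members, 1 higher (C3) and 21 lower, beside 14.2% of all genes. DESeq2 on all 9 libraries called 1 higher (C3) and 4 lower (C6, C8b, C9 and Serpinc1), beside 3.38% of the genes to which it gave an adjusted p. The groups did not overlap for 1 member higher and 22 lower, beside 9.45% and 9.97% of all genes. The medians were -0.37 for complement and -0.30 for coagulation, with 36 of 39 members negative. Without A1G replicate 1 these medians went to -0.18 and -0.14, with 33 members negative and again none past the threshold. On the log2(TPM + 1) scale 24 members were negative and the medians were -0.07 and 0.00, where the median of all genes was 0.24.

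In MG mice against A1G mice, both flown, none of the 39 members passed in edgeR, where 0.0758% of all genes tested and 0.265% of the abundant ones did. At an unadjusted p under 0.05 there were 10 members higher and 1 lower, beside 8.97% of all genes in either direction, and DESeq2 on all 9 libraries called 4 higher (C3, Fga, Fgg and Hrg) and 1 lower (C6), beside 1.14% of the genes to which it gave an adjusted p. DESeq2 on the 6 libraries compared called 4 higher and none lower. The groups did not overlap for 12 members, all higher in MG mice and 10 of them coagulation genes, beside 7.62% higher and 7.8% lower among all genes. The medians were 0.08 for complement, with 13 of 19 positive, and 0.23 for coagulation, with 19 of 20 positive. Without A1G replicate 1 they were -0.05 and 0.13, and 23 of 39 members were positive.

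**Figure D4:**
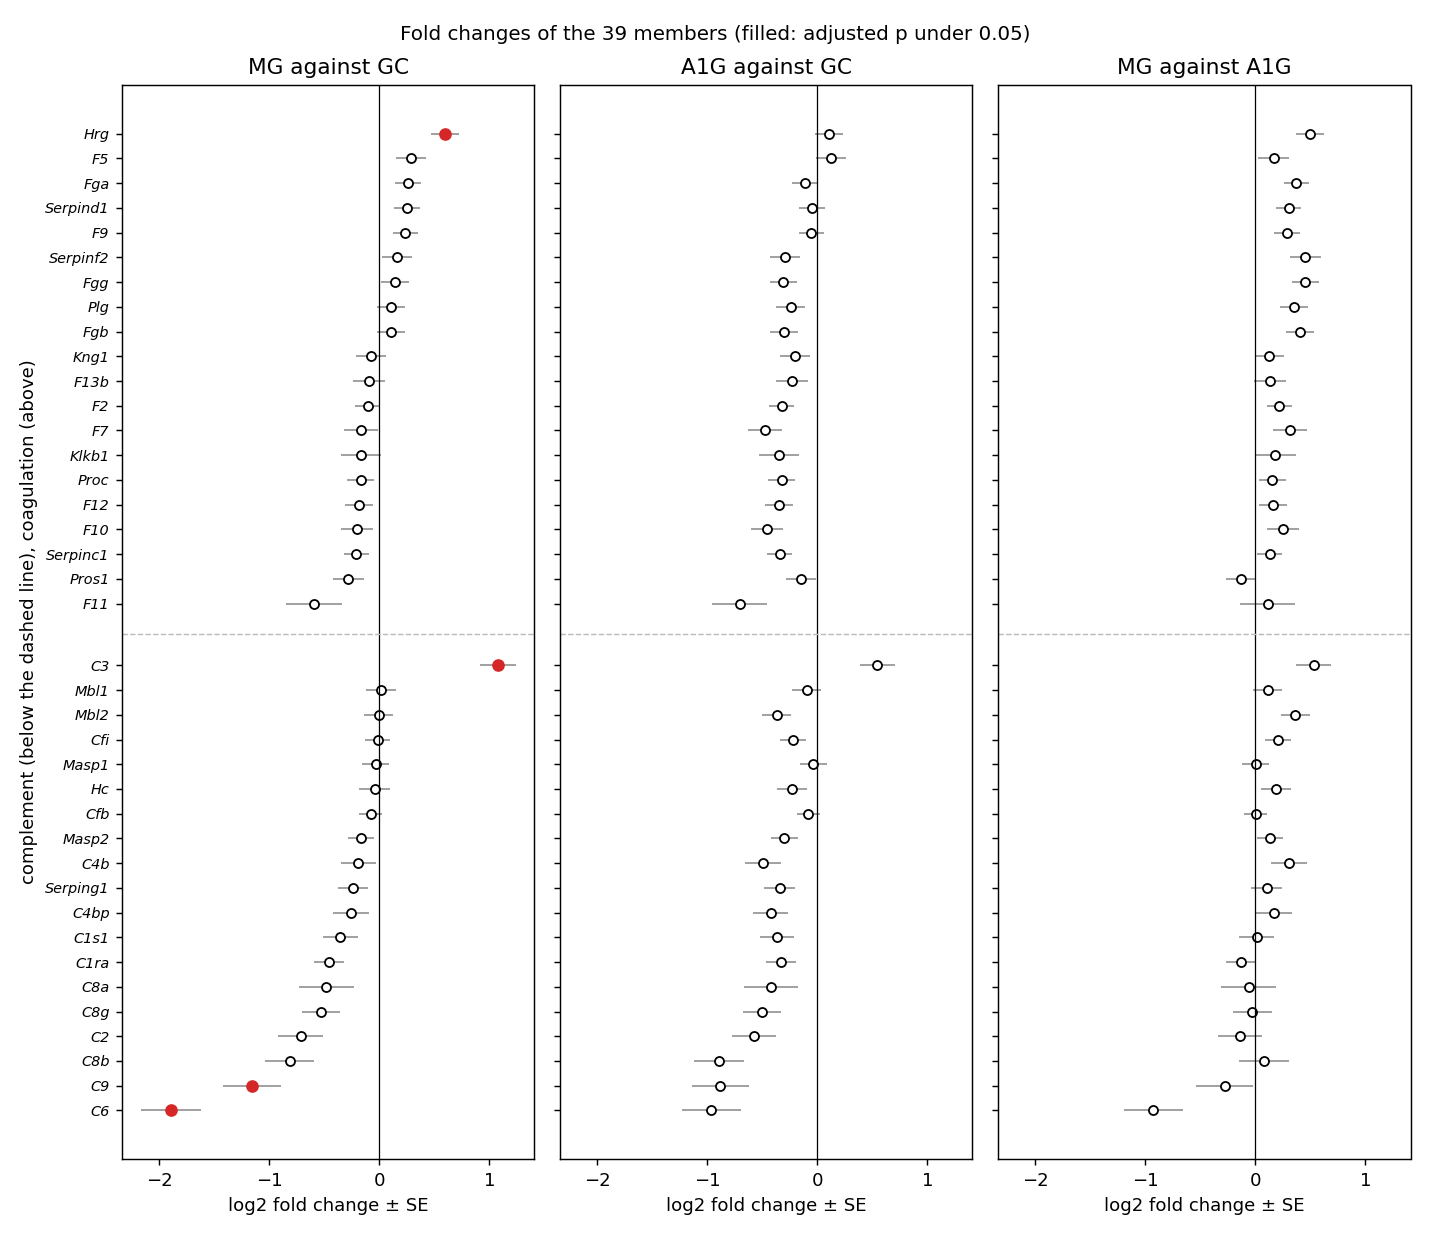
Log2 fold change (horizontal axis) with its standard error for the 20 coagulation (top) and 19 complement members (bottom) in the 3 comparisons, each list ordered by its value in MG against GC, with filled red points for an adjusted p under 0.05. C3 and Hrg lie to the right and C6 and C9 to the left in MG against GC, and no member passed in the other comparisons.

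The medians were also taken mouse by mouse, with each member set against its GC mean. In the MG mice the median of the complement members was -0.32, -0.22 and -0.19 and that of the coagulation members -0.03, -0.03 and -0.06. In the A1G mice the complement medians were -0.70, -0.23 and -0.15 and the coagulation medians -0.50, -0.17 and -0.17. A1G replicate 1 is the low value in both lists, and on this scale the other A1G mice also lie below every GC mouse. On the TPM scale they do not, with complement at -0.01 and 0.15 and coagulation at 0.06 and 0.14 where GC replicate 1 was at -0.17 and -0.20, and A1G replicate 1 was at -0.37 and -0.19. After the median of all genes in each mouse was subtracted from these TPM values, A1G replicates 2 and 3 were at -0.19 and -0.10 for complement and at -0.12 and -0.11 for coagulation, again below every GC mouse. As a share of all counts, the 39 members made up 3.24 ± 0.27% in GC mice, 3.33 ± 0.21% in A1G mice and 4.05 ± 0.15% in MG mice (SD, n = 3), which counts C3 and fibrinogen most.

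**Figure D5:**
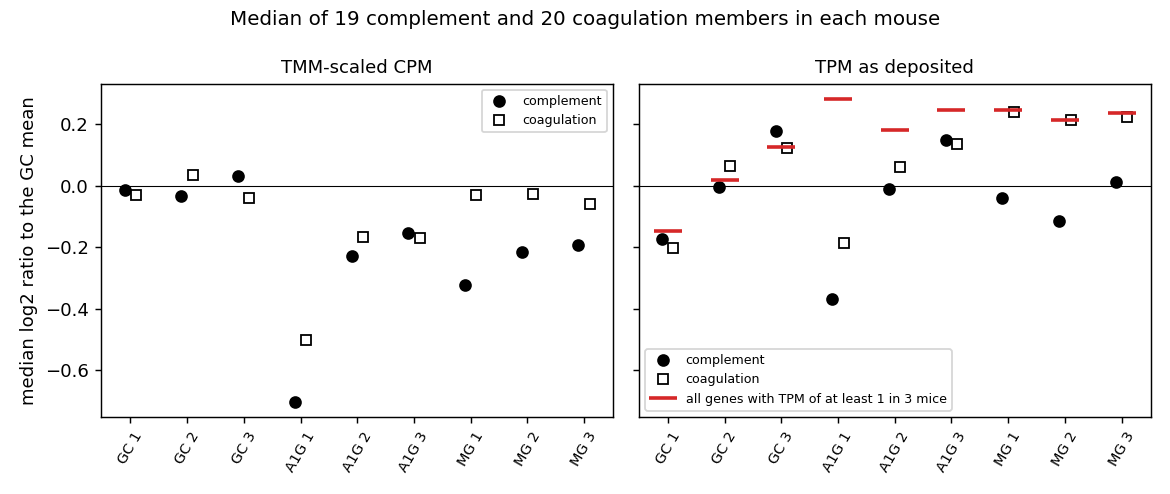
Median log2 ratio to the GC mean of the 19 complement (filled circles) and 20 coagulation members (open squares) in each of the 9 mice, on the CPM scale after TMM scaling (left) and as deposited TPM (right), with red bars for the median of all genes with a TPM of at least 1 in 3 mice. A1G replicate 1 is lowest in both panels for complement, and on the TPM scale the median of all genes is itself above 0 in every flown mouse.

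Other genes of the same pathways, outside the 39, were counted in the same way. Of 28 other complement genes 24 could be tested and none passed in any comparison, while 5 in MG mice and 5 in A1G mice against GC mice had an unadjusted p under 0.05, near the shares of all genes (18.5% and 14.2%). Those with the smallest p were Clu (clusterin, which binds the assembling pore), at -0.54 ± 0.14 in MG mice against GC mice (edgeR adjusted p = 0.0532), and Cfhr2 (a factor H-related protein), at -0.32 ± 0.10 in A1G mice against GC mice (edgeR adjusted p = 0.202). Of 23 other haemostasis genes 19 could be tested, and 2 were called in MG mice and 1 in A1G mice against GC mice (10.5% and 5.26% of those tested, beside 3.33% and 0.644% of all genes). Cpb2, which encodes the fibrinolysis inhibitor TAFI, fell in both flown groups against GC mice, by 0.53 ± 0.11 and 0.58 ± 0.11 on the log2 scale (edgeR adjusted p = 0.0254 and 0.0474). Its CPM were 285, 273 and 249.8 (GC), 158, 188 and 195 (A1G) and 189.8, 193 and 176 (MG), so every flown mouse lay below every GC mouse. Apoh (beta-2-glycoprotein I, which binds phospholipid) rose in MG mice against GC mice, by 0.48 ± 0.11 (edgeR adjusted p = 0.0349).

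None of 8 genes of the vitamin K cycle and of factor V and VIII export passed, and those of smallest p were Mcfd2 (0.31 ± 0.10 in MG mice against GC mice) and Nqo1 (1.55 ± 0.53 in A1G mice against GC mice, edgeR adjusted p = 0.115 and 0.214). The CPM of Nqo1 were 22.8, 7.39 and 4.48 (A1G) beside 6.11, 3.03 and 2.64 (GC), with A1G replicate 1 far above its group mates. Of 19 acute phase genes 5 rose in MG mice against GC mice and none fell, where 1.17% of all genes rose and 2.15% fell. Of the 19, 5 had negative values there, the lowest at -1.01. In A1G mice against GC mice 10 were negative, the lowest at -1.28, and none passed. Lbp (lipopolysaccharide-binding protein) rose by 1.23 ± 0.11, Serpina3m by 0.82 ± 0.12, Apcs (serum amyloid P) by 0.69 ± 0.16, Hp (haptoglobin) by 0.53 ± 0.11 and Itih3 by 0.52 ± 0.12 (edgeR adjusted p = 0.000388, 0.00397, 0.0367, 0.0255 and 0.0366). Lbp also rose in MG mice against A1G mice, by 0.78 ± 0.11 (edgeR adjusted p = 0.0413). In MG mice against GC mice, where 1.17% of all genes rose, 4 of 24 other secreted hepatocyte proteins rose and none fell. They were Agt (angiotensinogen, 0.80 ± 0.12), Igfals (the IGF-binding acid-labile subunit, 0.67 ± 0.12), Itih3, which is also in the acute phase list, and A1bg, whose mean CPM was 0.201 in GC mice and 1.75 in MG mice (edgeR adjusted p = 0.00489, 0.00982, 0.0366 and 0.00507). None of 20 transcription factors of plasma protein genes passed, and those of smallest p were Nr1i2 (-0.39 ± 0.12 in A1G mice against GC mice) and Onecut1 (2.10 ± 0.63 in MG mice against GC mice, edgeR adjusted p = 0.167 and 0.0972).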

How the data were processed

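Poly(A) RNA from the livers of 9 mice (GC, A1G and MG, n = 3 each) was made into stranded libraries and sequenced. Reads were trimmed by the authors in fastp 0.19.4, transcripts were quantified in Salmon 0.9.1 (GRCm38), and the authors deposited estimated counts per gene, 17.1% of which are not whole, and TPM scaled to transcript length. The annotation release and the use of strand in quantification are not given in the sources used here. The deposited tables of the authors' own comparisons hold log2 fold changes, standard errors, test statistics and p-values, of which no value was used. Only the symbols in them were. Symbols came from these tables for 20524 IDs and from GENCODE M21 for 14180, and 162 IDs had none. Positions are those of GENCODE M21.

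Estimated counts were rounded, filtered with filterByExpr (minimum count 10, keeping 99.9% of counts), scaled by TMM and fitted over all 9 libraries with 1 coefficient per group in edgeR 4.0.16 (R 4.3.3) by the quasi-likelihood F test, and p-values were adjusted by Benjamini-Hochberg over 13193 genes. The standard error is the absolute log2 fold change divided by the square root of F. CPM are TMM-scaled. An exact rank test of 3 against 3 mice cannot go below p = 0.1, and none was run on single genes. The procedure was tested on simulated data. Alternatives were RLE or library size scaling, TMM without the members, no filter or 10 counts in every library, DESeq2 1.42.0 and edgeR on fewer libraries, limma 3.58.1 on log2(TPM + 1) or log2(TPM + 0.1) for genes with at least 1 TPM in 3 libraries or with no filter, a replicate block, and each library left out in turn. Full values were given for 16 members, first those past the threshold and then those of smallest p. From each list of other genes those that passed were named, at most 5, and otherwise the 2 of smallest p. The rule that picks the members reads no measured value, but the members and lists were chosen with earlier results of these data known.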

Additional observations from a re-analysis of the deposited data

Results flagged for a closer look

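For 5 members every MG mouse lay above the GC mean and every A1G mouse below it on the CPM scale. The share of all genes with this pattern was not counted. Every MG mouse lay above every A1G mouse for 7.62% of all genes tested. None of the 5 members passed against GC mice in either flown group. On the TPM scale the A1G mean was above the GC mean for Fga (1996 against 1789), Plg (950 against 931) and Serpinf2 (368 against 365). The 5 members were Fga, Fgb, Fgg, Plg and Serpinf2, the genes of fibrinogen and of plasmin and its inhibitor. The difference between the groups, as the log2 fold change of MG mice against A1G mice, was 0.37 for Fga, 0.41 for Fgb, 0.45 for Fgg, 0.35 for Plg and 0.46 for Serpinf2. By edgeR's test with Benjamini-Hochberg adjustment over all genes none passed (adjusted p = 0.298, 0.296, 0.237, 0.400 and 0.294). Without A1G replicate 1 the values ran from 0.23 (Plg) to 0.36 (Fgg), and again none passed.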

How the results depend on the processing

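No call of a member changed direction under any alternative. In MG mice against GC mice, C3 passed under all 12 alternatives other than those that left out 1 library, C6 under 11 (adjusted p = 0.0552 for limma on log2(TPM + 1) with no filter), Hrg under 12 and C9 under 9 (adjusted p up to 0.191). Of members not called in the main fit, C8b passed under 5 of these 12, C2 under 4, and C1ra and C8g under 3 each. There 2 members rose and 2 fell, and the number that fell was 5 without the count filter, 6 under DESeq2 (9 libraries), 9 under DESeq2 (6 libraries) and 5 when edgeR used 6 libraries. The number of all genes that fell was 284 and went to 509, 515, 502 and 327 in these fits. With limma on log2(TPM + 1) or log2(TPM + 0.1), 5 rose and 1 fell, the added genes being F9, Fga and Serpind1, and with no filter 0 fell. Of all genes 524, 530 and 198 rose in these limma fits and 121, 122 and 63 fell, against 155 and 284 in the main fit. In A1G mice against GC mice 4 members fell with no filter, DESeq2 on 9 libraries gave 1 that rose and 4 that fell, and DESeq2 on 6 libraries 1 and 3. Of all genes 228, 244 and 207 fell in these fits, against 62 in the main fit, and 156, 152 and 124 rose, against 23. In MG mice against A1G mice C6 fell with no filter (1 member), DESeq2 on 9 libraries gave 4 that rose and 1 that fell, and DESeq2 on 6 libraries 4 that rose. Of all genes 103, 76 and 79 fell in these fits, against 3 in the main fit, and 85, 88 and 96 rose, against 7. Leaving out 1 library gave 1 to 2 members that rose and 1 to 6 that fell in MG mice against GC mice. The 6 came without A1G replicate 1 (C1ra, C2, C8a and C8b added), where 397 of all genes fell, against 284 in the main fit. In MG mice against A1G mice, leaving out 1 library gave 0 to 1 that fell.

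The medians moved with scaling and with A1G replicate 1. In MG mice against GC mice the coagulation median was 0.0524 with library size only, 0.18 on both TPM scales (0.1755 and 0.1764), and the complement median was -0.0572 and -0.0574 there. In A1G mice against GC mice the complement and coagulation medians were -0.18 and -0.12 with library size only, and -0.0737 (with or without the filter), or -0.0741 with a pseudocount of 0.1, and 6e-04 on the TPM scales. Over the fits that left out 1 library the coagulation medians ran from -0.34 to -0.14 and the complement medians from -0.47 to -0.18 in A1G mice against GC mice, and from 0.13 to 0.34 and from -0.05 to 0.18 in MG mice against A1G mice. In MG mice against GC mice, library size only raised the share of calls among all genes that were higher from 35.3% to 64.6%, and limma on log2(TPM + 1) to 81.2%. In A1G mice against GC mice that share went from 27.1% to 65.8% and 67.5%.

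Replicate numbers mark separate mice. The correlation of same-numbered deviations ran from -0.008 to 0.114, and that of different-numbered ones from -0.088 to 0.041. In MG mice against A1G mice the same-numbered values (0.059 to 0.114) all lay above the others (-0.088 to 0.006). Deviations were taken from the group mean, so within a group they cancel out for each gene. These correlations are therefore not separate observations, and a higher value for a pair lowers others. The labels state no pairing, and what the gap between same-numbered and other pairs reflects was not tested. With the replicate block 2 members rose and 3 fell in MG mice against GC mice, with C8b added, and the medians were -0.24 for complement and -0.08 for coagulation. Among all genes 188 then rose and 321 fell, against 155 and 284 without the block. In A1G mice against GC mice these were 54 and 91, against 23 and 62. In MG mice against A1G mice they were 19 and 25, against 7 and 3. All members had a mean of at least 858 counts per library, and what limited the number of calls was not tested.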
